A study of Mus musculus with 30 samples.

Results

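The genes of ER folding and the unfolded protein response described here are 36 mouse genes named by symbol. They cover the chaperones, lectins and disulfide enzymes of the endoplasmic reticulum (ER), its translocation and degradation machinery, the stress sensors with their transcription factors, and targets of the integrated stress response. All 36 were found in a table of 33924 genes, and all 36 were among the 19016 genes that passed a filter on low counts. They were set beside the thyroglobulin load of each group, because Tg, the gene of thyroglobulin, encodes the main cargo that thyroid follicular cells fold.

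RNA-seq counts were measured in mouse thyroid in 10 groups. Mutant Braf(V600E), an activated kinase of the MAPK pathway, was combined with knockout (KO) of Smarcb1, Arid2 or Arid1a, which encode parts of SWI/SNF, a remodeller of chromatin, or was left alone. Each of these 4 genotypes was given CKI (CH5126766, a MEK inhibitor) or vehicle for 8 days and taken about 2 h after the last dose. Arid1a KO without mutant Braf and wild-type (WT) thyroids were untreated. Groups held 3 libraries, and 2 each for Braf Arid2 KO with CKI and with vehicle, or 28 in all. The labels give 2 preparations, flash-frozen glands for WT, Arid2 and Smarcb1 mice and sorted YFP-positive cells from dissociated glands, but carry both on every sample. Preparation and genotype therefore cannot be told apart, and the driver of the KO alleles and the age of the mice are not given in the sources used here. Nothing in the labels says that libraries came from separate mice, and each p-value therefore rests on a spread among libraries that may be technical. Pax8, a transcription factor that marks follicular cells, was detected in every library, at 53.8 to 1246 CPM (counts per library size, scaled as described below).

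Secretory proteins enter the ER through the Sec61 channel, are folded by Hspa5 (BiP) and its partners, gain sugars and disulfide bonds, and are sent to the proteasome when folding fails. When unfolded protein builds up, the sensors Ern1 (IRE1), Atf6 and Eif2ak3 (PERK) act through Xbp1, cleaved Atf6 and Atf4 to raise folding and degradation genes. Thyroid follicular cells are professional secretory cells, and thyroglobulin is a very large disulfide-bonded glycoprotein.

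The upstream sequences show the element that many of these genes share. The ER stress response element (ERSE), bound by Atf6 and Xbp1 with NF-Y, was searched as CCAAT and CCACG with 9 bases of any kind between them, on both strands of RefSeq promoter windows of build GRCm38.p6, from 250 bases before to 50 after each gene start. The count table is of mm9, so genes were matched by symbol, and 32 of the 36 members had a window, 2 of them under a newer symbol. An exact ERSE stood in 10 of these 32 windows (31.2%) and in 35 of 27025 windows of all genes (0.13%). The short form ERSE-II (ATTGG, 1 base of any kind, CCACG) stood in Dnajb11 and Herpud1 (0.037% of all windows). The core of the amino acid response element, TGATGNAA, an Atf4 site, stood in Herpud1, Trib3, Chac1 and Asns (12.5% against 4.06% of all windows), and the Xbp1 core TGACGTGG stood in none of the 32 (0.607% of all). None of these motifs overlapped another in the members. A match describes letters in a window, not a bound site.

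The 5 genes shown here carry many of the changes described below, and each is given with the 250 bases before its start, 5′ to 3′ on the gene's strand. Capitals mark a match to ERSE, and in Herpud1 to ERSE-II and the amino acid response core. The match lies on the other strand in Calr, Creld2 and Derl3, and for the amino acid response core in Herpud1.
Hspa5 (chr2:34771840-34772089, plus strand): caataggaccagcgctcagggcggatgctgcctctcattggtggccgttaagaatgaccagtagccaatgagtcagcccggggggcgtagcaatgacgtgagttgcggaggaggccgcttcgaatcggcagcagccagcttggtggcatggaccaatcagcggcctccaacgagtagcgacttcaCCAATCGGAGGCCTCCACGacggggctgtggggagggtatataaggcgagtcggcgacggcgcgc
Calr (chr8:84846932-84847181, minus strand): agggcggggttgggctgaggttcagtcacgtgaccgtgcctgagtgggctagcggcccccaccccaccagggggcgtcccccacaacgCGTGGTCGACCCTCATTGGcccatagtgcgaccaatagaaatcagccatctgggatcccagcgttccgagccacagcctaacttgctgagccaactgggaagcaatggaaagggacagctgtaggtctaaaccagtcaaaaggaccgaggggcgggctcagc
Creld2 (chr15:88819396-88819645, plus strand): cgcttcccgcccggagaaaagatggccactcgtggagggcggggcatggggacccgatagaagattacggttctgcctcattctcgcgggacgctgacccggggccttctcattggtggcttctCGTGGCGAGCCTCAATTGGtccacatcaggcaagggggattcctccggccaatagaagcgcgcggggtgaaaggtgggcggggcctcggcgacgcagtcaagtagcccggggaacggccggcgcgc
Derl3 (chr10:75893148-75893397, plus strand): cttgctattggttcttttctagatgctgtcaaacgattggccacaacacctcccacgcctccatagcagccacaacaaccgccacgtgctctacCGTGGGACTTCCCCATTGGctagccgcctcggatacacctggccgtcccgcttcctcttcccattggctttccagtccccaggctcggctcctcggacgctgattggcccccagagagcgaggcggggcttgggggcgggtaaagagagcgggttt
Herpud1 (chr8:94386179-94386428, plus strand): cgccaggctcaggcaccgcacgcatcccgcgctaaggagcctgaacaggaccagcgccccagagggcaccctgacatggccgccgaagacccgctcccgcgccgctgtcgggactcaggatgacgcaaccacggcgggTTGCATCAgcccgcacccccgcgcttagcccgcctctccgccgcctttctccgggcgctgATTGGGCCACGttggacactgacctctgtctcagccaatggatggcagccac

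The ERSE matches of the other members are shown in the direction of the motif with the 9 spacer bases in lower case, so that the shared ends can be compared.
Hsp90b1 (chr10:86705638-86705656): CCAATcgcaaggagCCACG
Hsp90b1 (chr10:86705533-86705551): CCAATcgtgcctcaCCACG
Canx (chr11:50325800-50325818): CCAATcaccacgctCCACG
Pdia6 (chr12:17266491-17266509): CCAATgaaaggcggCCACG
Dnajc3 (chr14:118937827-118937845): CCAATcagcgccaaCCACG
Syvn1 (chr19:6046532-6046550): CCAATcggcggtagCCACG
Ero1lb (chr13:12565682-12565700): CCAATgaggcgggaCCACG

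Levels are given in CPM, where library sizes were scaled by TMM. They are compared between libraries for 1 gene at a time, since counts also grow with transcript length. Library totals ran from 23879271 to 34400066 counts. Each log2 fold change has its standard error (SE) and comes from edgeR's quasi-likelihood test. Its p was adjusted over all genes tested, and a gene is called where that is under 0.05. In bulk RNA, fewer cells of a type and less RNA per cell cannot be told apart.

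The Tg share of all counts ran from 0.0014% to 14.2% over the 28 libraries. Braf Smarcb1 KO held 0.199 ± 0.0515% with CKI and 0.00755 ± 0.00588% with vehicle (SD, n = 3 each). Braf Arid2 KO held 4.62 ± 1.88% with CKI and 0.0504 ± 0.0151% with vehicle (n = 2 each). Braf Arid1a KO held 2.67 ± 0.384% with CKI and 0.0583 ± 0.0334% with vehicle, and Braf alone 1.31 ± 0.661% and 0.0383 ± 0.0414% (n = 3 each). Arid1a KO held 5.31 ± 1.52% and WT 9.90 ± 4.21% (n = 3 each). Every CKI library lay above every vehicle library, and Arid1a KO (4.07% to 7.0%) overlapped WT (5.83% to 14.2%).

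The 36 members together took a much narrower share of the counts that were not Tg. In descending order of the means, WT held 3.22 ± 0.429%, Braf Arid2 KO with CKI 2.42 ± 0.0644%, Braf Arid1a KO with CKI 2.09 ± 0.268% and Braf with CKI 1.76 ± 0.145%. Next came Braf Arid2 KO with vehicle at 1.40 ± 0.364%, Arid1a KO at 1.37 ± 0.491%, Braf Smarcb1 KO with CKI at 1.37 ± 0.112%, Braf Arid1a KO with vehicle at 1.27 ± 0.0670%, Braf Smarcb1 KO with vehicle at 1.24 ± 0.130% and Braf with vehicle at 1.14 ± 0.101%. WT libraries (2.74% to 3.57%) lay above all others. Braf Arid2 KO with CKI (2.37% to 2.47%) overlapped no neighbour, and from Braf Arid1a KO with CKI downwards each group overlapped the next. A highly counted gene weighs more in this sum than a sparse one.

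Arid1a KO stood apart from the order of the loads. It had the second highest mean Tg share, while its members' share of 0.915% to 1.89% was spread around those of the vehicle groups. For each count of the 36 members its libraries held 4.52 ± 1.97 Tg counts, against 3.47 ± 1.45 in WT (SD, n = 3 each). These overlapped, at 2.244 to 5.722 in Arid1a KO and 1.853 to 4.655 in WT. Braf Arid2 KO with CKI held 2.02 ± 0.906, Braf Arid1a KO with CKI 1.31 ± 0.0619 and Braf with CKI 0.776 ± 0.457. Library 2 of Arid1a KO had the lowest Tg share (4.07%) and the highest member share (1.89%) of its group.

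**Figure D1:**
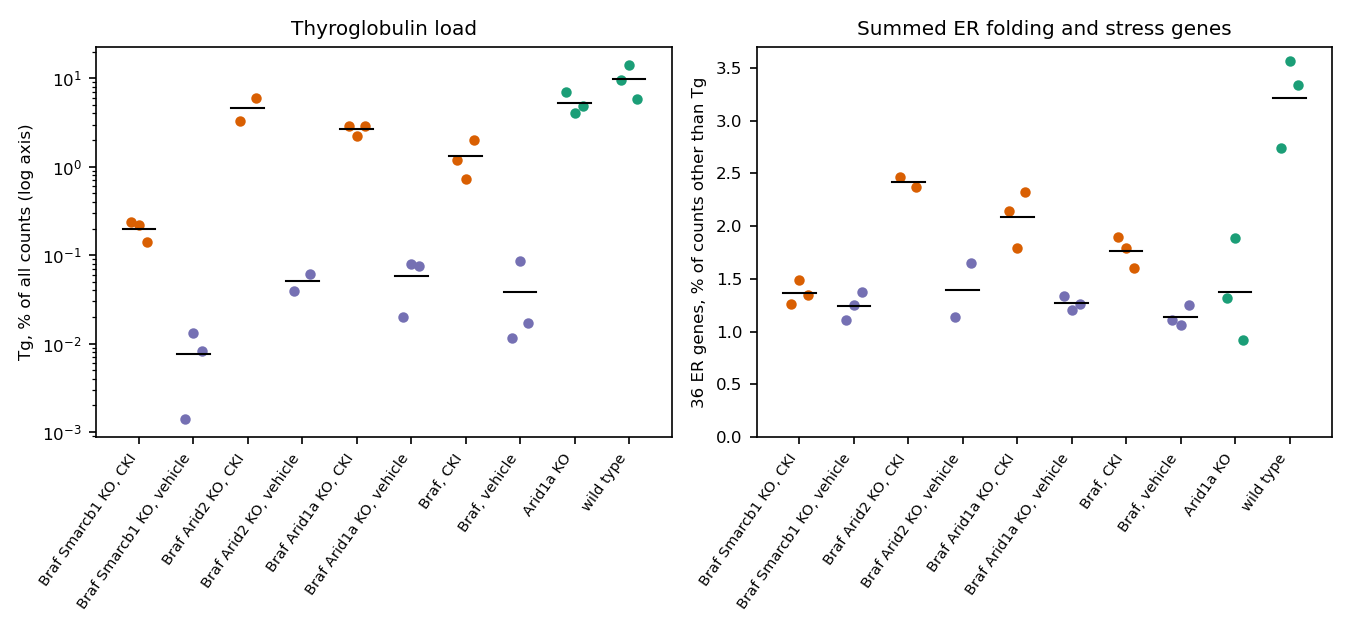
Left, Tg counts as a percentage of all counts per library (log axis). Right, counts of the 36 members as a percentage of counts other than Tg. Points are libraries (orange CKI, purple vehicle, green untreated) and bars are group means. Every CKI library has more Tg than every vehicle library, and WT libraries are highest in the right panel at 2.74% to 3.57%. Arid1a KO joins a high Tg share to a member share of 0.915% to 1.89%.

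Braf mutant thyroid with vehicle against untreated WT thyroid asks how the folding genes stand when the cargo gene is strongly reduced. Of the 36 members 17 fell and 1 rose, where 20.0% of all genes tested were called, 10.1% lower and 9.85% higher. The members' median log2 fold change was -0.89, against -0.03 over all genes tested. Vehicle dosing went with the Braf groups only. Tg itself fell (log2 fold change -7.97, SE 0.87, adjusted p = 2.21e-06).

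Of the 9 chaperones 8 fell. Hspa5, the central ER chaperone, stood at 3620, 2323 and 3201 CPM in the Braf vehicle libraries, against 6970, 9693 and 9611 CPM in WT libraries. The groups did not overlap, and the log2 fold change was -1.52 (SE 0.36, adjusted p = 0.00415). Sdf2l1, a partner of the cochaperone Dnajb11, stood at 22.4, 8.53 and 28.5 CPM with Braf, against 98.9, 299 and 246 CPM in WT. Every Braf library was below every WT library (log2 fold change -3.44, SE 0.69, adjusted p = 0.0011). Creld2, an ER protein raised by ER stress, fell by 2.98 on the log2 scale (SE 0.62, adjusted p = 0.00164). Dnajb11, Hyou1 (the exchange factor of Hspa5) and Manf, a secreted stress-induced factor, changed by -2.07, -2.01 and -2.00, and Dnajc3 and Hsp90b1 (GRP94) by -1.86 and -1.38. Dnajb9 was the chaperone that did not pass (-0.94, adjusted p = 0.137).

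Both lectins fell. Calr, the soluble lectin calreticulin, had 1660, 1501 and 1469 CPM in Braf vehicle libraries, against 4310, 4583 and 4276 CPM in WT libraries. The spread within either group was small beside the gap (log2 fold change -1.51, SE 0.30, adjusted p = 0.00112). Its membrane-bound relative Canx fell too (-0.79, SE 0.20, adjusted p = 0.00782). Of 7 degradation genes 5 fell, led by Derl3, a derlin of secretory tissues, with 7.23, 2.82 and 13.1 CPM with Braf, against 169, 395 and 348 CPM in WT. This was the largest change of any member (log2 fold change -5.30, SE 0.74, adjusted p = 2.93e-05). Syvn1 (the ligase Hrd1) changed by -1.32, its adaptor Sel1l by -1.27, Herpud1 by -1.54 and Derl2 by -0.59, while Derl1 did not pass (-0.90, adjusted p = 0.108). Of these 5 calls the one of Derl3 was made in all 6 refits that left out 1 library, while Derl2 was lost in 5, Herpud1 in 4, Sel1l in 3 and Syvn1 in 2.

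Other roles were mixed. Of 6 disulfide genes, Ero1lb, the oxidase that recharges the isomerases in secretory tissues, fell by 2.46 (SE 0.60, adjusted p = 0.00547) and Pdia4 by 1.46 (SE 0.27, adjusted p = 0.000475) on the log2 scale, and Pdia6 did not pass (-0.72, adjusted p = 0.0611). Neither translocation gene and none of the 3 sensors or 3 factors passed, and Xbp1 stood at 123, 84.7 and 162 CPM with Braf, against 77.3, 158 and 95.2 CPM in WT. The 1 rise was Trib3, a pseudokinase induced through Atf4. It had 68.1, 40.4 and 95.4 CPM with Braf, against 6.52, 13.2 and 11.0 CPM in WT (log2 fold change 2.73, SE 0.48, adjusted p = 0.000382), while Atf4 itself stood at 764, 279 and 500 CPM with Braf and 402, 454 and 680 CPM in WT. Of the 10 members with an ERSE in their promoter 9 fell, and of the 22 searched without one 6 fell and 1 rose (medians -1.52 and -0.59). This split was not seen in each comparison, as the values for Arid1a KO and for CKI in Braf below show. With CKI in the knockouts, the medians with and without an ERSE were 1.15 and 0.28 in Braf Arid1a KO. They were 0.80 and 0.20 in Braf Arid2 KO, and 0.09 and 0.16 in Braf Smarcb1 KO.

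Among 38 other ER folding and translocation genes 5 fell and 1 rose, the glucosyltransferase Uggt1, which checks glycoprotein folding, among those lower (log2 fold change -1.73, SE 0.33, adjusted p = 0.000763). Among 24 amino acid response genes 6 rose and 1 fell. The cystine transporter Slc7a11 and the stress protein Nupr1 changed by 4.50 and 4.22, and the glycoprotein hormone Stc2 by -2.65. Of 14 cytosolic chaperones 1 rose and none fell.

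Other cell types moved in this comparison, and their part in the result was not tested. C cells and parathyroid cells, themselves secretory, lost all 4 and all 3 of their markers, with summed levels of 25.5 to 90.6 CPM and 17.8 to 39.5 CPM in Braf vehicle libraries, against 12430 to 33000 CPM and 1591 to 5527 CPM in WT libraries. All 6 endothelial markers fell (22.6 to 442 CPM against 1354 to 1811 CPM in WT), 3 of 7 leukocyte markers rose (773 to 1388 CPM against 349 to 581 CPM in WT), and 7 of 8 fibroblast and 4 of 5 mast cell and basophil markers rose. Dosed libraries of every genotype held 10.3 to 248 CPM for C cell and 19.4 to 442 CPM for endothelial markers. Untreated libraries, Arid1a KO included, held 4443 to 33000 CPM and 1085 to 1811 CPM. Mutant Braf, dosing and a possible difference in preparation, which the labels do not assign, cannot be told apart here. With the leukocyte level as a covariate 13 members were called, 5 fewer than without it. That level did not overlap between the groups, so this fit too has little power to separate them.

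**Figure D2:**
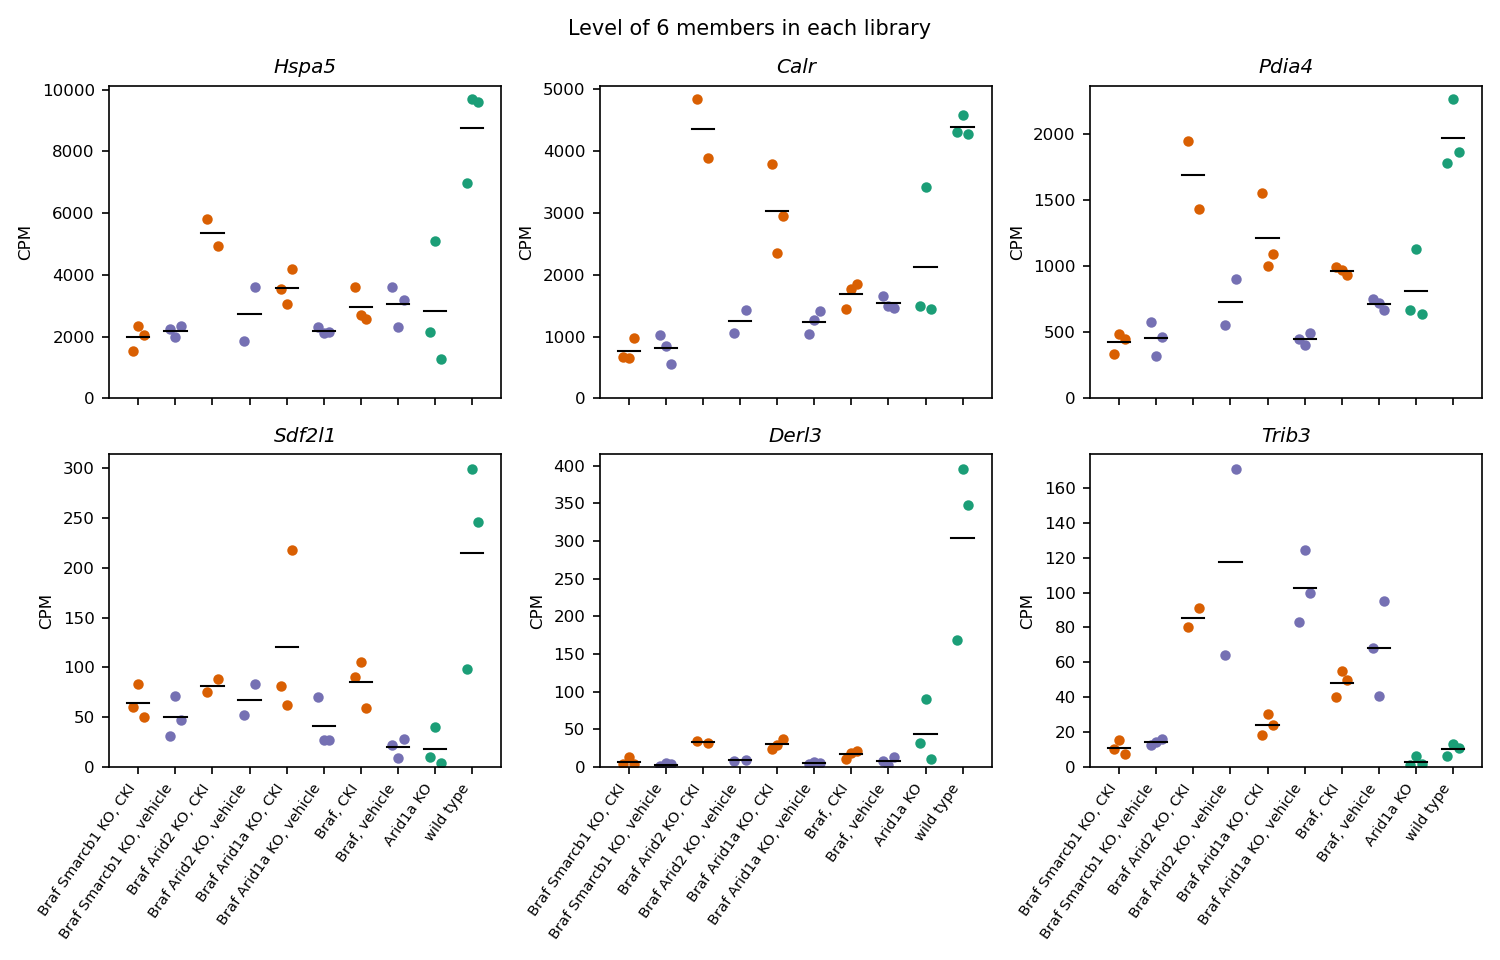
CPM of Hspa5, Calr, Pdia4, Sdf2l1, Derl3 and Trib3 in each library of the 10 groups. Points are libraries and bars are group means. WT libraries are highest for Hspa5 (6970 to 9693 CPM) and Derl3 (169 to 395 CPM), and Trib3 is low in WT, Arid1a KO and both Smarcb1 groups.

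Arid1a KO thyroid without mutant Braf against WT thyroid set a group that kept much of its Tg against the same WT libraries, so this comparison shares its controls with the one above. Of the 36 members 22 fell and none rose, where 18.6% of all genes tested were called, 11.8% lower and 6.85% higher. The members' median log2 fold change was -1.36, against -0.01 over all genes tested. Tg stood at 68820, 41430 and 50670 CPM in Arid1a KO libraries, against 99370, 155400 and 58850 CPM in WT libraries, and did not pass (log2 fold change -0.96, SE 0.65, adjusted p = 0.322).

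Of the 3 factors 1 fell, of the 4 integrated stress targets 2, and of the 6 disulfide genes 3. Atf4, the factor of the integrated stress response, had 94.2, 235 and 83.2 CPM in Arid1a KO libraries, against 402, 454 and 680 CPM in WT. These groups did not overlap (log2 fold change -1.90, SE 0.37, adjusted p = 0.00268). Its targets Trib3 (1.24, 6.21 and 1.80 CPM against 6.52, 13.2 and 11.0 CPM in WT) and Ppp1r15a, the phosphatase subunit GADD34, fell by 1.73 and 1.42 on the log2 scale. Both translocation genes fell, the channel subunit Sec61b by 1.70 (SE 0.45, adjusted p = 0.0117) and the translocon protein Ssr1 by 0.93 (SE 0.24, adjusted p = 0.00975). P4hb, the archetypal disulfide isomerase, fell by 1.74 (265, 707 and 220 CPM against 931, 1679 and 1369 CPM in WT), and Pdia3, the isomerase that works with the lectins, by 2.04 (222, 315 and 118 CPM against 498, 1186 and 999 CPM in WT).

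Chaperones again fell in 8 of 9. Dnajb11 had the smallest p (51.9, 130 and 31.0 CPM in Arid1a KO libraries, against 210, 446 and 372 CPM in WT libraries; log2 fold change -2.27, SE 0.40, adjusted p = 0.00175). Sdf2l1 changed by -3.57, Creld2 by -2.65, Manf by -2.47 and Hspa5 by -1.62. Arid1a KO library 2 was the highest of its group for all 5 of these genes. Syvn1, Herpud1, Derl1 and Derl3 made 4 of 7 degradation genes lower, with log2 fold changes of -1.95, -2.53, -1.73 and -2.78. Sensors did not pass, and all 3 had positive values, with Atf6 at 0.46 (adjusted p = 0.248). With an ERSE 7 of 10 members fell and without one 12 of 22, with medians of -1.18 and -1.36.

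Outside the members, 10 of 38 other folding and translocation genes fell and 2 rose. Pdia5 and the oligosaccharyltransferase subunit Rpn1 changed by -1.80 and -2.17. Of 12 other degradation genes 4 fell, with Edem2, which trims mannose from misfolded glycoproteins, at -2.42. Of 24 amino acid response genes 5 fell and 1 rose, and Slc7a11 was the 1 that rose (2.35, SE 0.55, adjusted p = 0.00601).

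Leukocyte markers were higher in this comparison in 7 of 7, with summed levels of 2202 to 3851 CPM in Arid1a KO libraries, against 349 to 581 CPM in WT libraries. Fibroblast markers rose in 5 of 8 (10230 to 14190 CPM against 794 to 1510 CPM in WT), and of the 8 plasma cell genes measured Ighm rose (247, 143 and 278 CPM against 16.1, 16.8 and 26.8 CPM in WT). Parathyroid markers fell in 3 of 3 and C cell markers in 2 of 4. Mast cell and basophil markers rose in 4 of 5 (46.7 to 88.5 CPM against 0.110 to 0.454 CPM in WT). Of 11 dissociation stress genes Junb and Ier2 fell, by 2.62 and 2.74 on the log2 scale, and Arid1a KO library 2, the highest of its group for the chaperones named above, was also highest for this list (16080 CPM, against 9118 and 8540 CPM in libraries 1 and 3). The part of these genes in the result was not tested. With the leukocyte level as a covariate none of the members was called (17 genes in all, against 3539 without it), and the members' median was -0.86. Since the leukocyte level did not overlap between the 2 groups, this fit has little power to separate the group from that level. Without Arid1a KO library 3 the count was 10 and without library 1 it was 14, and the remaining 4 refits gave 15 to 23.

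**Figure D3:**
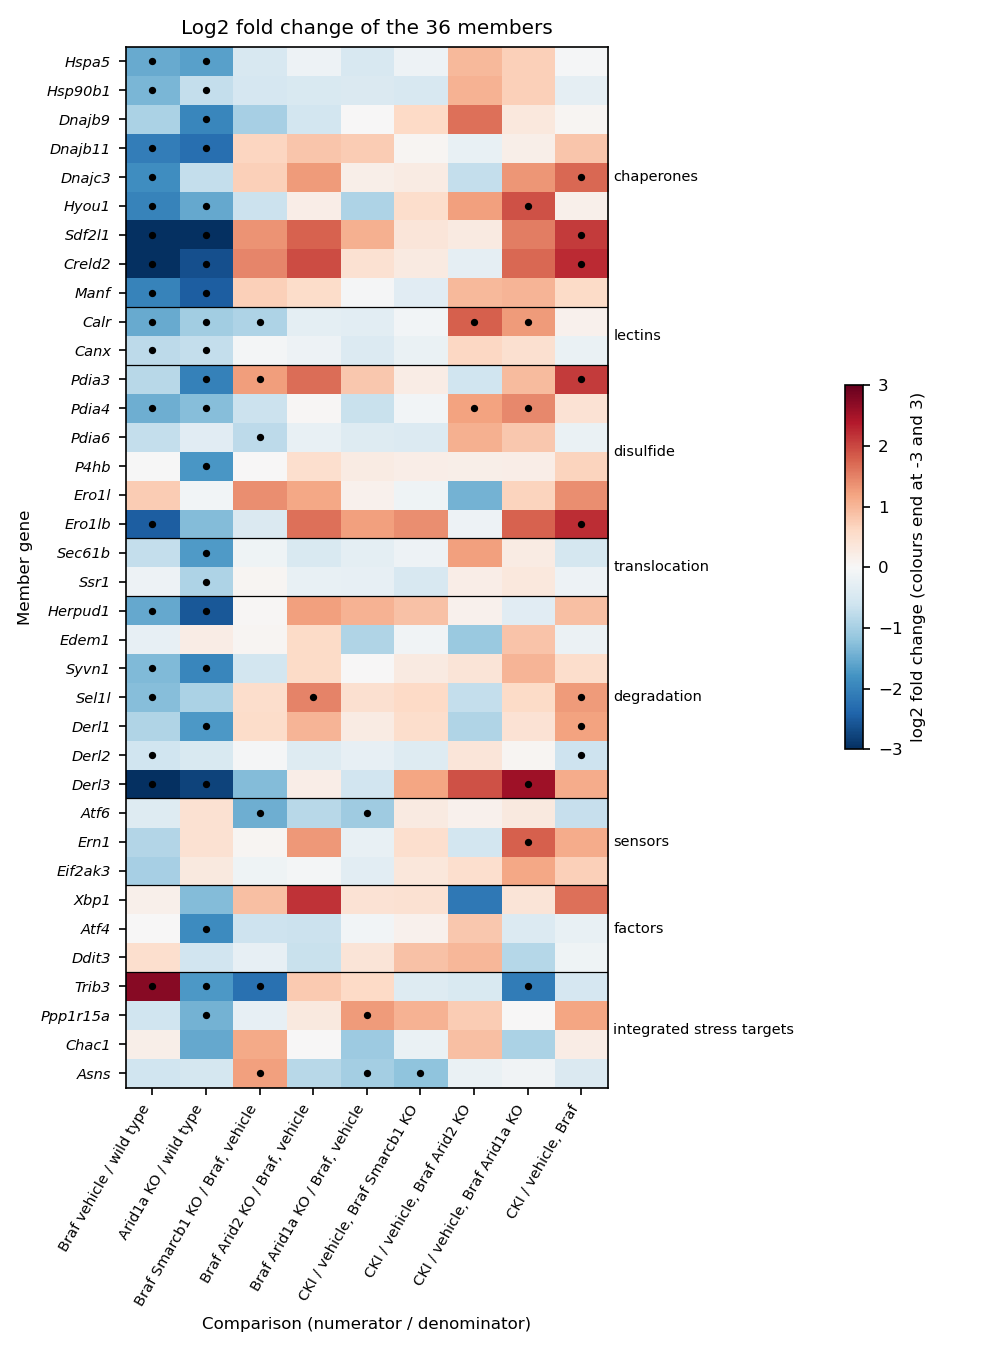
Log2 fold changes of the 36 members (rows, by role) in the comparisons of 2 groups (columns), with the mutant or treated group over its control. Colour gives the log2 fold change and dots mark an adjusted p under 0.05. The 2 columns against WT are mostly blue, with 17 and 22 members lower, and 21 to 30 of 36 members are positive in each CKI column.

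SWI/SNF loss under vehicle asks whether the knockouts shift the folding genes of Braf mutant thyroid. All 3 comparisons share the Braf vehicle libraries. Braf Smarcb1 KO against Braf changed 2 members upwards and 4 downwards (28.6% of all genes tested were called, 14.4% higher and 14.2% lower), and the members' median was -0.05 against 0.03 over all genes. Braf Arid2 KO against Braf changed 1 member, upwards (3.61% of all genes, 2.33% higher and 1.28% lower; median 0.25 against -0.04). Braf Arid1a KO against Braf changed 1 upwards and 2 downwards (9.56% of all genes, 4.25% higher and 5.31% lower; median -0.06 against 0.00). The members' calls made up a share near or below that of all genes.

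Atf6, the sensor cleaved in the Golgi to release a transcription factor, had 37.6, 39.8 and 29.1 CPM in Braf Smarcb1 KO vehicle libraries, against 98.8, 118 and 77.6 CPM in Braf vehicle libraries (log2 fold change -1.47, SE 0.28, adjusted p = 0.000562). It had 49.8, 40.1 and 50.04 CPM in Braf Arid1a KO vehicle libraries (log2 fold change -1.07, SE 0.27, adjusted p = 0.016). It had 66.7 and 44.0 CPM in Braf Arid2 KO vehicle libraries, which did not pass (-0.82, adjusted p = 0.121). Every KO library was below every Braf vehicle library, and WT libraries held 126, 157 and 104 CPM. The 3 tests share 1 set of controls, so they are not independent.

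Trib3 had 12.5, 14.4 and 16.2 CPM in Braf Smarcb1 KO vehicle libraries, against 68.1, 40.4 and 95.4 CPM in Braf vehicle libraries (log2 fold change -2.24, SE 0.48, adjusted p = 0.0015). Asns, the asparagine synthetase, had 197, 107 and 104 CPM, against 55.6, 60.5 and 58.6 CPM with Braf (log2 fold change 1.22, SE 0.32, adjusted p = 0.00634). With Arid1a loss Asns was lower instead, at 22.1, 25.0 and 38.8 CPM (log2 fold change -1.02, SE 0.32, adjusted p = 0.0431). Ppp1r15a was higher (811, 954 and 610 CPM against 355, 209 and 421 CPM with Braf; log2 fold change 1.27, SE 0.41, adjusted p = 0.0497). Smarcb1 loss further changed Calr by -0.93, Pdia6 by -0.79 and Pdia3 by 1.25, and Arid2 loss changed Sel1l by 1.49 (260 and 151 CPM against 52.9, 66.9 and 100 CPM with Braf; SE 0.41, adjusted p = 0.0471).

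Ppp1r15a lost its call in all 6 refits that left out 1 library. Dissociation stress genes were at 13090 to 24690 CPM in Braf Arid1a KO vehicle libraries, against 6268 to 12930 CPM with Braf, with none of the 11 past the threshold. Of 5 mast cell and basophil markers 3 fell with Arid1a loss and 1 with Smarcb1 loss. Of 6 endothelial markers 4 fell with each of these losses, and 4 of 7 leukocyte markers fell with Smarcb1 loss. Fibroblast markers were lower in all 3 knockouts than in Braf (5 of 8 with Smarcb1 loss, 4 of 8 with Arid2 loss and 7 of 8 with Arid1a loss), at 391 to 2804 CPM in their vehicle libraries against 1177 to 24440 CPM with Braf. The part of these markers in the members' changes was not tested. Of the 10 calls, 2 were made in every refit that left out 1 library, Atf6 and Trib3 with Smarcb1 loss. The Smarcb1 count was 3 without Braf vehicle library 2 or Braf Smarcb1 KO vehicle library 2. The Arid2 call was lost without Braf vehicle library 2 or 4 or without either Arid2 KO library, and 2 members were called without Braf vehicle library 5. The Arid1a count was 0 without Braf vehicle library 4 or Arid1a KO vehicle library 2, and 1 without Braf vehicle library 2 or 5 or Arid1a KO vehicle library 1.

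CKI against vehicle asks how the folding genes respond when the MEK inhibitor brings Tg back. Tg rose in all 4 genotypes, by 4.65 in Braf Smarcb1 KO, 6.51 in Braf Arid2 KO, 5.50 in Braf Arid1a KO and 4.94 in Braf on the log2 scale (adjusted p = 0.00137, 0.00126, 0.000509 and 0.000524).

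In Braf thyroid 7 members rose and 1 fell with CKI, where 13.0% of all genes tested were called, 7.96% higher and 5.01% lower. The members' median was 0.48, against -0.01 over all genes. Pdia3 had 2381, 2717 and 1366 CPM with CKI, against 446, 279 and 774 CPM with vehicle. The groups did not overlap (log2 fold change 2.11, SE 0.48, adjusted p = 0.00968). Creld2 had 144, 148 and 56.3 CPM with CKI, against 29.3, 9.65 and 35 CPM with vehicle (log2 fold change 2.24, SE 0.61, adjusted p = 0.0208). Ero1lb had 163, 112 and 74.8 CPM, against 27.9, 21.1 and 26.8 CPM with vehicle (log2 fold change 2.20, SE 0.59, adjusted p = 0.0202). In each of these 3 genes CKI library 5 was the lowest of the treated libraries and still above vehicle. Sdf2l1, Dnajc3, Sel1l and Derl1 rose by 2.10, 1.73, 1.27 and 1.20, and Derl2 fell by 0.62. The median was 0.33 for the 10 members with an ERSE (3 rose) and 0.55 for the 22 without (3 rose and 1 fell).

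The genes with the largest counts among the chaperones and lectins did not pass in Braf. Hspa5 had 3607, 2686 and 2568 CPM with CKI, against 3620, 2323 and 3201 CPM with vehicle, and Calr 1449, 1771 and 1855 CPM, against 1660, 1501 and 1469 CPM with vehicle. These groups overlapped. Xbp1 had 489, 536 and 137 CPM with CKI, against 123, 84.7 and 162 CPM with vehicle, and library 5 brought the groups to overlap (log2 fold change 1.65, adjusted p = 0.0731). Among the 38 other folding and translocation genes 5 rose and 4 fell, with the oligosaccharyltransferase subunits Stt3b and Ddost at 1.88 and 1.90 and the translocon subunit Ssr3 at -0.83.

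Leukocyte markers fell with CKI in Braf in 7 of 7, at 153 to 293 CPM with CKI against 773 to 1388 CPM with vehicle, and 4 of 5 mast cell and basophil markers fell. Dissociation stress genes rose in 6 of 11, at 18410 to 26810 CPM against 6268 to 12930 CPM with vehicle. With the leukocyte level as a covariate none of the members was called (102 genes in all, against 2466 without it) and their median was 0.08. The leukocyte level did not overlap between the groups, so this fit has little power to separate CKI from that level. Left out singly, Braf vehicle library 2 or 4 or CKI library 1 left 1 member called and CKI library 4 left 2. Pdia3 was called in all 6 refits.

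Braf Arid1a KO thyroid raised 5 members and lowered 1 with CKI, where 4.51% of all genes tested were called, 2.51% higher and 2.00% lower. The members' median was 0.62, against 0.03 over all genes. Pdia4, a disulfide isomerase, had 1557, 998 and 1089 CPM with CKI, against 452, 403 and 493 CPM with vehicle (log2 fold change 1.43, SE 0.27, adjusted p = 0.00418). Calr had 3793, 2346 and 2944 CPM, against 1037, 1273 and 1419 CPM with vehicle (log2 fold change 1.28, SE 0.30, adjusted p = 0.018). Neither gene's groups overlapped. Hyou1 had 123, 93.6 and 121 CPM, against 27.7, 20.9 and 41.9 CPM with vehicle (log2 fold change 1.90, SE 0.43, adjusted p = 0.0149). Derl3 rose to 24.3, 28.7 and 37.3 CPM, against 4.50, 6.31 and 4.76 CPM with vehicle (log2 fold change 2.54, SE 0.65, adjusted p = 0.0296), and remained far under the 169 to 395 CPM of WT. Ern1, which encodes the sensor IRE1, rose by 1.80 (SE 0.46, adjusted p = 0.0275), and Trib3 fell by 2.09 (18.3, 30.2 and 23.9 CPM against 83.4, 124 and 99.5 CPM with vehicle).

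CKI library 5 of Braf Arid1a KO stood apart from the others of its group for Xbp1 (451 CPM, against 96.2 and 107 CPM in libraries 2 and 4), Pdia3 (3014 against 1051 and 1003 CPM) and Dnajc3 (328 against 96.6 and 88.8 CPM). It also stood apart in dissociation stress genes (37560 CPM, the highest of all 28 libraries, against 10880 and 24790 CPM). Its leukocyte markers were at 146 CPM against 393 and 344 CPM, its fibroblast markers at 393 CPM against 1647 and 3594 CPM, and its endothelial markers at 27.4 CPM against 77.8 and 69.1 CPM. The part of these in its member values was not tested. Without it 3 members were called. The count was 2, 1 and 3 without vehicle library 1, 2 or 3, and Pdia4 was called in all 6 refits. Leukocyte markers were at 146 to 393 CPM with CKI, against 428 to 968 CPM with vehicle (1 of 7 fell). With their level as a covariate 1 member, Pdia4, was called, and the median was 0.19. Mast cell and basophil markers were at 1.55 to 6.58 CPM with CKI, against 162 to 331 CPM with vehicle, and Mcpt8 fell (-5.80, adjusted p = 0.00242). The parathyroid marker Casr rose (5.525, adjusted p = 0.00649). The part of these markers in the result was not tested.

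Braf Arid2 KO thyroid raised Calr and Pdia4 with CKI and lowered none of the members (3.37% of all genes tested were called, 1.41% higher and 1.96% lower; members' median 0.32, against -0.03 over all genes). Calr had 4836 and 3886 CPM with CKI, against 1065 and 1437 CPM with vehicle (log2 fold change 1.80, SE 0.37, adjusted p = 0.011), beside WT levels of 4276 to 4583 CPM. Pdia4 had 1944 and 1435 CPM, against 555 and 905 CPM with vehicle (log2 fold change 1.21, SE 0.32, adjusted p = 0.0401). Hspa5 had 5798 and 4936 CPM, against 1875 and 3593 CPM with vehicle, and did not pass. Leaving out vehicle library 2 or CKI library 3 left no call and CKI library 4 left 1, while 5 members were called without vehicle library 4. Leukocyte markers were at 150 to 157 CPM with CKI, against 514 to 556 CPM with vehicle, and Rac2 passed (log2 fold change -2.74, adjusted p = 0.0349). Mast cell and basophil markers were at 31.6 to 36.2 CPM, against 438 to 628 CPM with vehicle. The part of both in the result was not tested. With the leukocyte level as a covariate none was called, in a fit with little power since that level did not overlap between the groups.

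Braf Smarcb1 KO thyroid changed 1 member with CKI, Asns, at 61.0, 57.6 and 57.6 CPM against 197, 107 and 104 CPM with vehicle (log2 fold change -1.21, SE 0.32, adjusted p = 0.0324; 3.85% of all genes tested were called, 1.80% higher and 2.05% lower). This call was lost in 4 of 6 refits, those without vehicle library 1 or any 1 of the CKI libraries. Dissociation stress genes were at 18180 to 21070 CPM with CKI, against 7460 to 9366 CPM with vehicle, and 1 of 11, Nr4a1, rose (1.56, adjusted p = 0.046). Mast cell and basophil markers were at 1.14 to 3.17 CPM, against 25.02 to 460 CPM with vehicle, and 1 of 5, Mcpt8, fell. The part of both in the result was not tested. Hspa5 had 1551, 2332 and 2055 CPM with CKI, against 2263, 1990 and 2339 CPM with vehicle. The members' median was 0.21, against 0.03 over all genes, with 21 of 36 positive. Tg reached 1883, 1900 and 1214 CPM in the CKI libraries of this genotype, the lowest Tg of the 4 CKI groups.

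Outside the members, Stc2, a secreted glycoprotein and target of Atf4, rose with CKI in all 4 genotypes, by 2.25 in Braf Smarcb1 KO, 4.51 in Braf Arid2 KO, 2.90 in Braf Arid1a KO and 1.94 in Braf on the log2 scale (adjusted p = 0.00482, 0.000189, 0.000786 and 0.0073). It was the 1 amino acid response gene called in each of the 3 knockouts. Creb3l2, a membrane-bound factor akin to Atf6, rose in Braf Arid1a KO (2.17, adjusted p = 0.0117) and in Braf (1.64, adjusted p = 0.0247).

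Edem1, Eif2ak3, Ddit3 and Chac1 passed in none of the comparisons. Ddit3, the factor CHOP, ran from 23.7 to 147 CPM over the 28 libraries, Edem1, which marks glycoproteins for degradation, from 6.34 to 29.9 CPM, Eif2ak3 from 2.09 to 15.4 CPM and Chac1, an enzyme that breaks down glutathione, from 1.01 to 26.9 CPM.

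Differences in drug response between knockout and Braf thyroid were tested directly. No gene differed for Arid1a loss, with 9 members and 2018 genes at an unadjusted p under 0.05, and DESeq2 called 0 members and 167 genes. For Smarcb1 loss 58 genes differed (0.305%, with 0.110% higher and 0.195% lower), none of them members, with 4 members at an unadjusted p under 0.05 and 0 called by DESeq2. The lists of members called by CKI in single genotypes are therefore not shown to differ for these 2 losses.

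For Arid2 loss 7 members differed, 2 with a higher and 5 with a lower response than in Braf, where 8.66% of all genes tested were called, 1.47% higher and 7.19% lower. Xbp1 had 115 and 134 CPM with CKI and 340 and 764 CPM with vehicle in Braf Arid2 KO, against 489, 536 and 137 CPM with CKI and 123, 84.7 and 162 CPM with vehicle in Braf. Its log2 fold change with CKI was -2.15 in the knockout and 1.65 in Braf, neither past the threshold, and the responses differed by -3.80 (SE 0.97, adjusted p = 0.0208). Pdia3 had 951 and 1173 CPM with CKI and 1193 and 2008 CPM with vehicle in Braf Arid2 KO (difference -2.70, SE 0.74, adjusted p = 0.0285). Derl1, Ero1l and Sel1l differed by -2.11, -2.80 and -1.98.

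The lectin Calr and the chaperone Hsp90b1 differed the other way, by 1.67 (SE 0.47, adjusted p = 0.0314) and 1.31 (SE 0.38, adjusted p = 0.0355). Hsp90b1 had 2049 and 1934 CPM with CKI and 670 and 1275 CPM with vehicle in Braf Arid2 KO, against 970, 1211 and 1098 CPM with CKI and 1453, 1235 and 1297 CPM with vehicle in Braf. Both of these genes have an exact ERSE in the promoter, Hsp90b1 in 2 copies. Of the 5 with a lower response, 4 had a promoter window, and none of the 4 held an exact ERSE. Over all members searched, 2 of 10 with an ERSE had a higher response and none a lower one. Of the 22 without, none had a higher and 4 a lower response (medians 0.80 and -0.32). Dnajc3, Creld2 and Ero1lb also have an ERSE, and they rose with CKI in Braf but did not pass in Braf Arid2 KO. Among the 38 other folding and translocation genes 7 had a higher and 4 a lower response, with Fkbp11, a proline isomerase of secretory cells, at 1.86.

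Each arm of the Arid2 groups has 2 libraries. No member was called without CKI library 3 or 4 of Braf Arid2 KO, where the lone library left was taken to vary like the other groups. Other single libraries left 1 to 9, with 1 without Arid2 KO vehicle library 2 or Braf CKI library 1, 2 without Braf vehicle library 2 or Braf CKI library 4, and 3 without Braf vehicle library 4. With the leukocyte level as a covariate 7 were called. Dissociation stress genes differed in the same comparison, with 4 of 11 lower, at 10040 to 14920 CPM with CKI and 10210 to 15560 CPM with vehicle in Braf Arid2 KO, against 18410 to 26810 and 6268 to 12930 CPM in Braf. The plasma cell list was at 74.7 to 126 CPM with CKI and 738 to 1134 CPM with vehicle in Braf Arid2 KO, and nearly all of the vehicle sum was Sdc1 (1082 and 715 CPM), which epithelia also express. Of its 8 genes Sdc1 fell with CKI in this genotype and differed in response from Braf. Igkc, Ighm, Igj, Irf4 and Pou2af1 had negative log2 fold changes with CKI that did not pass, with Ighm at 1.53 and 1.29 CPM with CKI, against 21.4 and 5.08 CPM with vehicle. Prdm1 had 17.9 and 33.9 CPM with CKI, against 17.3 and 15.9 CPM with vehicle, and Tnfrsf17 was at 0 in all 4 libraries. The part of these differences in the result was not tested.

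**Figure D4:**
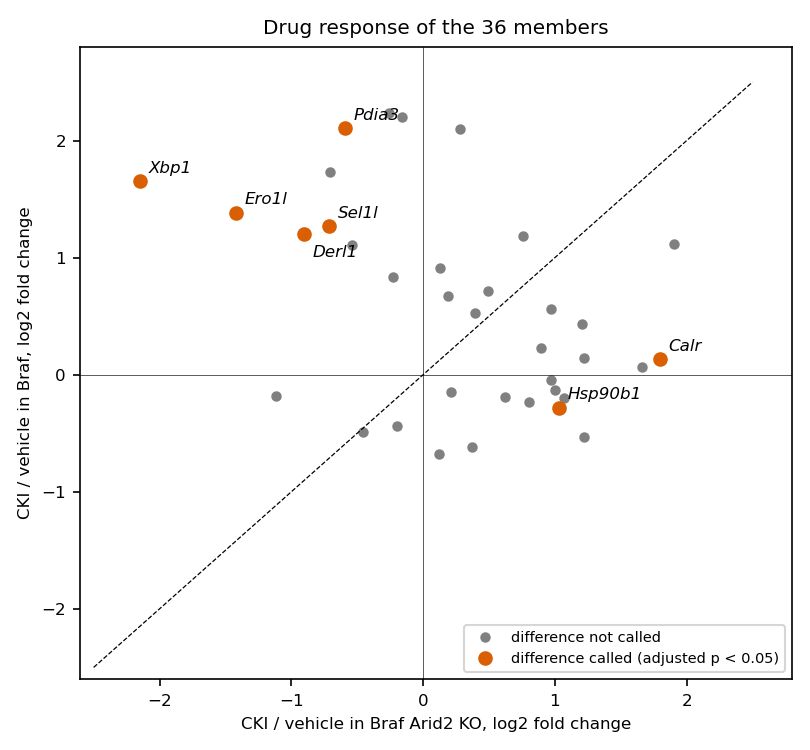
Log2 fold change with CKI of each member in Braf Arid2 KO (x axis) and in Braf (y axis), with the dashed line of equal response. Named points are the 7 members whose responses differed. Xbp1, Pdia3, Derl1, Ero1l and Sel1l lie above the line (higher in Braf) and Calr and Hsp90b1 below it.

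Libraries of the same group differed from each other along a line that ran through Xbp1. Deviations from the group mean of log2 CPM were compared over 28 libraries in 10 groups, as a description with no p, since libraries share depth and preparation and Xbp1 was chosen after its values were seen. Pearson's r with Xbp1 was 0.949 for Dnajc3, 0.894 for Ero1lb, 0.891 for Creld2, 0.862 for Derl1, 0.858 for Pdia3 and 0.848 for Ero1l. Spearman's rho was 0.805 to 0.898 for these 6. Without the 2 libraries farthest from the middle for Xbp1 (CKI library 5 of Braf Arid1a KO and vehicle library 1 of Braf Smarcb1 KO), r was 0.922, 0.838, 0.852, 0.798, 0.824 and 0.793. Of all 19015 other genes 539 (2.83%) reached an r of at least 0.8, against 6 of 35 members. Dissociation stress genes went along with Xbp1 in some groups and not in others. They were at 10880, 24790 and 37560 CPM in Braf Arid1a KO CKI libraries, with Xbp1 deviations of -0.793, -0.642 and 1.435. In Braf CKI libraries they were at 26810, 21900 and 18410 CPM, with deviations of 0.569, 0.701 and -1.27. In Braf Arid2 KO vehicle libraries they were at 15560 and 10210 CPM, with deviations of -0.584 and 0.584. Their part in this axis was not tested.

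Members of the same pathway lay elsewhere on this axis. Hspa5 had an r of 0.366, Hsp90b1 of 0.151, Pdia4 of -0.0692, Calr of -0.291 and Hyou1 of -0.419, and 8 of the 35 members were negative. In the Braf Smarcb1 KO vehicle libraries Xbp1 was at 67.3, 232 and 392 CPM and Dnajc3 at 31.1, 94.6 and 174 CPM, while Hyou1 was at 43.8, 49.0 and 16.8 CPM.

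**Figure D5:**
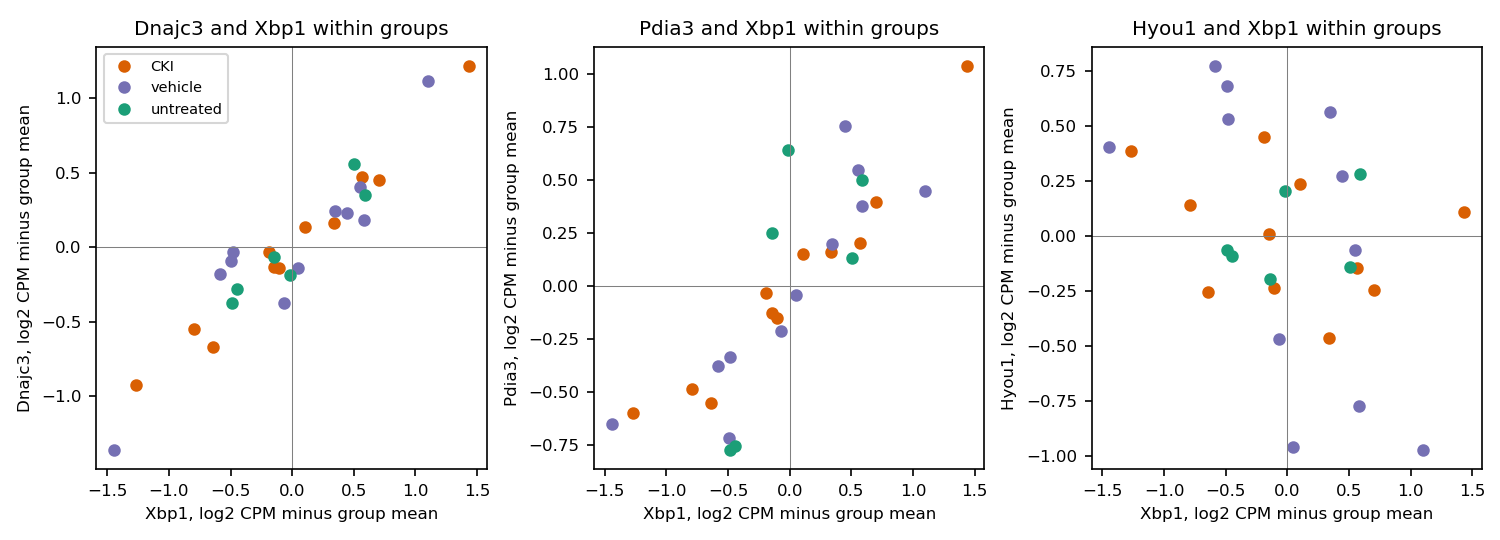
Deviation from the group mean of log2 CPM for Dnajc3, Pdia3 and Hyou1 (y axes) against that of Xbp1 (x axis), 1 point per library (n = 28). Dnajc3 and Pdia3 rise along with Xbp1 (r = 0.949 and 0.858) and Hyou1 does not (r = -0.419).

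Inside groups, no relation of the members to Tg was detected. A slope on log2 Tg, fitted beside a term per group so that only differences between libraries of a group count, was called for none of the 36 members and none of 19015 genes (0% of genes). 1 member and 788 genes had an unadjusted p under 0.05, and DESeq2 called 0 members and 20 genes. The members' median slope was -0.05, against 0.01 over all genes, in log2 units per log2 unit of Tg. The correlation of within-group deviations with Tg ran from -0.592 for Chac1 to 0.46 for Ern1, with Ssr1 at -0.455, Atf4 at -0.442, Xbp1 at 0.135 and Hspa5 at -0.193, given as a description over 28 libraries with no p. The orders of the groups by Tg and by member share therefore rest on the 10 groups, not on libraries within them.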

How the data were processed

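Gene counts of mouse thyroid RNA were analysed in 28 of 30 samples, and 2 samples (a vehicle and a CKI library of Braf Arid2 KO) were not analysed here. The table holds whole-number counts per gene as the authors deposited them. STAR 2.4, HTSeq 0.6.1 and DESeq2, and build mm9, are named per the submitters' processing notes. Per the labels' protocols a TruSeq kit was used, and whether counting used strand is not given in the sources used here. Columns of other series numbered 0.

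Library totals were 23879271 to 34400066 counts, and TMM factors 0.723 to 1.25. Of 33924 genes, 19016 passed edgeR's filter on low counts. A negative binomial model with 1 term per group was fitted to all libraries with edgeR 4.0.16 (limma 3.58.1, R 4.3.3). Each comparison used the quasi-likelihood test with Benjamini-Hochberg adjustment over all genes tested and a threshold of 0.05. Log2 CPM used a prior count of 2. The script was tested on simulated counts. Between replicates of a group, chi-square per degree of freedom over genes was 77 to 359 for 26 pairs, so no library was a repeat of another.

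Members and gene lists were chosen with earlier results of these data known. Members past the threshold were named, up to 8 by smallest p in full, as was the member of each role with the smallest p that did not pass, and up to 4 called genes of each further list. Hm13, Sels, Jchain, Mzb1 and Iglc1 of the lists were not matched in the table. Alternatives were RLE size factors, Tg left out, no filter, DESeq2 1.42.0, only the groups compared, the replicate number as a block, the leukocyte level as a covariate and each library left out. Same-numbered libraries of different groups deviated with correlations of -0.38 to 0.151 over 14 pairs, 1 of them over 0.1, so the numbers were not taken to pair libraries.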

Additional observations from a re-analysis of the deposited data

Results flagged for a closer look

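The response to CKI differed between Braf Arid2 KO and Braf thyroid for 7 members by a test of the difference itself. Of all genes tested 8.66% were called in this comparison, 1.47% higher and 7.19% lower, against 2 and 5 of the 36 members. Dissociation stress genes had a lower response in 4 of 11 in the same test, and their part in the result was not tested. The difference of log2 fold changes, Braf Arid2 KO minus Braf, was -3.80 for Xbp1, -2.70 for Pdia3, -2.11 for Derl1, -2.80 for Ero1l and -1.98 for Sel1l, and 1.67 for Calr and 1.31 for Hsp90b1. In edgeR's quasi-likelihood test their adjusted p was 0.0208, 0.0285, 0.0391, 0.0419, 0.0421, 0.0314 and 0.0355 in that order. All 7 tests share the same 10 libraries, 4 of them of Braf Arid2 KO. None of the 7 was called in every refit that left out 1 library. The call of Xbp1 was lost without vehicle library 4, CKI library 3 or CKI library 4 of Braf Arid2 KO.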

How the results depend on the processing

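No direction changed in 985 values of single genes under the alternatives. These values are only of members called in the fit of all libraries, and a called member was unlikely to change sign. Of the 985 values, 705 kept their side of the threshold and 280 no longer passed. Leaving out 1 library moved the count of members called to 13 to 17 for Braf against WT (18 with all libraries) and 10 to 23 for Arid1a KO against WT (22). It gave 3 to 7 for Smarcb1 loss (6), 0 to 2 for Arid2 loss (1) and 0 to 2 for Arid1a loss (3) under vehicle. For CKI it gave 0 to 1 in Braf Smarcb1 KO (1), 0 to 5 in Braf Arid2 KO (2), 1 to 7 in Braf Arid1a KO (6) and 1 to 9 in Braf (8), and 0 to 9 for the difference in response with Arid2 loss (7). The other differences in response and the Tg slope stayed at 0 under every alternative.

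A covariate for leukocyte markers gave counts of 0 for Arid1a KO against WT, 2 for Smarcb1 loss, 0 for Arid2 loss, 0 for CKI in Braf Arid2 KO, 1 in Braf Arid1a KO and 0 in Braf. In each of these the leukocyte level did not overlap between the groups compared, so the covariate leaves little power to separate them. The same holds for Braf against WT, where members were still called with the covariate, as given above. DESeq2 gave 5 for Arid2 loss, 7 for CKI in Braf Arid2 KO, 12 in Braf Arid1a KO and 11 for the difference with Arid2 loss. Only the groups compared gave 3 for Smarcb1 loss, 0 for Arid2 loss, 1 for Arid1a loss, 0 for CKI in Braf Smarcb1 KO and 5 in Braf Arid2 KO. No filter gave 1 for Arid1a loss, 0 for CKI in Braf Smarcb1 KO and 1 in Braf Arid2 KO, and RLE gave 0 for Arid2 loss. The cause was not tested.

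The replicate block gave 2 for Arid2 loss, 1 for Arid1a loss, and for CKI 0 in Braf Smarcb1 KO, 1 in Braf Arid2 KO and 2 in Braf Arid1a KO. Replicate numbers were not taken to pair the libraries, as described above. With 2 or 3 libraries a group, precision is limited by their number.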
